A study of Mus musculus with 2 samples.

Results

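Open chromatin at 10 genes of the Hippo pathway was examined in mouse cardiac progenitor cells (CPCs). The genes encode the transcription factors Tead1, Tead2, Tead3 and Tead4, the coactivators Yap1 and Wwtr1 (also called Taz), the cofactor Vgll4, the kinases Lats1 and Lats2, and the secreted protein Ctgf. Their peaks are the distinct intervals of the deposited peak list that carry one of these symbols, and they number 34 of 26232. All 10 genes have at least 1 peak, among 15351 symbols in the list. The genes were chosen by name with their peak numbers in this list already known, so the number, the distance and the width of their peaks are given as a description without a test.

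Chromatin accessibility was profiled by ATAC-Seq, where an enzyme, the Tn5 transposase, cuts and tags DNA that is not tightly packed. The single group held 2 replicates, from independent differentiations of E14 Tg(Nkx2–5-EmGFP) mouse ES cells, a line with a green fluorescent reporter driven by the cardiac gene Nkx2-5, whose strain the labels give as C57BL/6. The cells were collected at day 5 of directed differentiation, which used BMP4, Activin A, VEGF, bFGF and FGF10, and the labels name no knockdown or mutation for them. ES cells had been kept on mouse embryonic fibroblasts and then grown on gelatin before differentiation, and whether these cells were sorted for the reporter is not stated in the ATAC-Seq methods, so cells without the reporter may contribute to the peaks. Both replicates share 1 list of peaks. It holds no score and no value for either replicate, so depth is unknown, no replicate error can be given, and a missing peak does not measure closed chromatin. Of the markers examined, 8 of 9 cardiac progenitor genes have a peak (Hand2 has none), as do 3 of 4 genes of pluripotent cells, 4 of 4 fibroblast genes and 0 of 3 blood genes. Among all protein coding genes 62.5% have a peak, so these few genes do not show which cells contributed. A peak shows that a site is accessible, not that the gene is expressed.

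In the Hippo pathway a chain of kinases holds back growth. The kinases Stk3 and Stk4 with Sav1 activate Lats1 and Lats2 with their Mob1 partners, and Lats kinases phosphorylate Yap1 and Wwtr1, which then stay out of the nucleus. When the chain is quiet, Yap1 and Wwtr1 enter the nucleus, but they cannot bind DNA themselves and reach their targets through a Tead protein. Vgll4 competes with them for Tead, and Ctgf is a classical target gene. In the heart this pathway limits the growth of cardiomyocytes, and the element that Tead proteins bind is known from muscle genes as M-CAT.

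The letters GGAATG form the core of the element that Tead proteins recognise. They were searched on both strands. In the 250 bases before the 5′-most coding start site, 5 of the 10 genes held them, compared with 11.4% of 22367 protein coding promoters. The 200 bases before 4 of these start sites are shown, and each of these stretches lay inside a peak of its gene. They are written 5′ to 3′ on the strand of the gene, on mm9 (NCBIM37), with the Tead letters in capitals.
Ctgf (chr10:24315048-24315247, plus strand): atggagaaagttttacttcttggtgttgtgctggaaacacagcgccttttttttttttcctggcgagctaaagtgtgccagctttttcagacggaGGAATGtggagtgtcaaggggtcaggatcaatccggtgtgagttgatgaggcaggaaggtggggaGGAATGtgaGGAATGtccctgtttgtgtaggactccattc
Tead3 (chr17:28487751-28487950, minus strand): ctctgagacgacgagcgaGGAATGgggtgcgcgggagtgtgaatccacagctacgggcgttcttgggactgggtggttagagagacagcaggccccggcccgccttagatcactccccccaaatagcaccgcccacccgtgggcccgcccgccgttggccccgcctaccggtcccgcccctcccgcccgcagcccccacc
Yap1 (chr9:8004597-8004796, minus strand): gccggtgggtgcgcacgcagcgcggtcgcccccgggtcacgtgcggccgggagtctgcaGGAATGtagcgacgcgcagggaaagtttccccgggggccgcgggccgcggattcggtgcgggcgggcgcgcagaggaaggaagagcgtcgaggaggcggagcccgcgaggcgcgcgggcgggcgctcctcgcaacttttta
Wwtr1 (chr3:57379833-57380032, minus strand): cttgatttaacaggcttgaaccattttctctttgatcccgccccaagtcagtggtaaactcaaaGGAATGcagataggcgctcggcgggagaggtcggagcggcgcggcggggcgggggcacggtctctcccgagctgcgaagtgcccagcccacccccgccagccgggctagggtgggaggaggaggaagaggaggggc

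Ctgf, the target gene, held the most matches of the 10. There were 3 in its promoter, which began at positions -105, -40 and -31 from the start site and all read in the direction of the gene. Only 13 of the 22367 promoters (0.0581%) held at least 3. The promoters of Tead3, Yap1 and Wwtr1 held 1 match each, at -182, -141 and -136. A match of letters is a description of the sequence and does not show that a Tead protein was bound there.

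Tead1 had the most peaks of the 10 genes. It had 14, followed by Vgll4 with 7, and then came Tead3, Tead4, Yap1, Wwtr1 and Lats2 with 2 each and Tead2, Lats1 and Ctgf with 1 each. At least 1 peak was found in 10 of 10 members, compared with 62.5% of 21900 protein coding genes. At least 2 peaks were found in 7 of 10 members (24.4% of all), and at least 5 in 2 of 10 (2.23% of all). Only Rgs3, a regulator of G-protein signalling outside the pathway, had as many peaks as Tead1, and no gene in the list had more. Of the protein coding genes, 135 had as many peaks as Vgll4 or more.

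**Figure D1:**
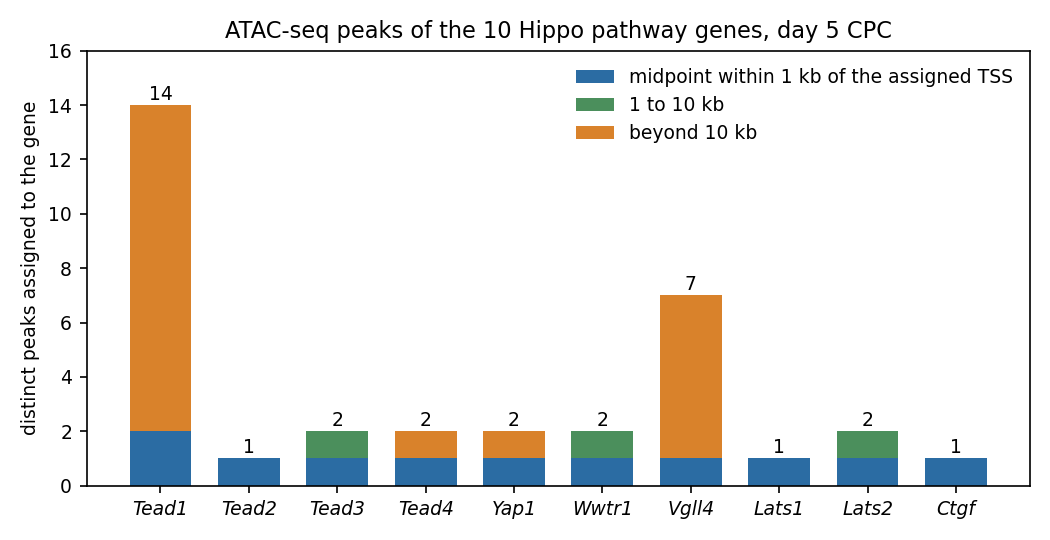
Number of distinct peaks assigned to each of the 10 genes (vertical axis), with colours for the distance of the peak midpoint from the assigned transcription start site (TSS). Tead1 has 14 peaks, 12 of them beyond 10 kb, Vgll4 has 7 with 6 beyond 10 kb, and each other gene has 1 or 2.

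A peak within 1 kb of the assigned transcription start site (TSS) was present at 10 of 10 members, compared with 50.1% of protein coding genes. A peak beyond 1 kb was present at 7 of 10, compared with 31.9%. Counted over peaks, 11 of the 34 (32.4%, 95% Wilson interval 19.1 to 49.2) lay within 1 kb of the TSS, compared with 44.9% of all peaks. The deposited distances of these 11 peaks ranged from -149 to 532 bp. The share depended on Tead1 and Vgll4. It was 45.0% (9 of 20, interval 25.8 to 65.8) without Tead1 and 61.5% (8 of 13, interval 35.5 to 82.3) without both. Of the 23 member peaks beyond 1 kb by the deposited distance, 2 covered an annotated start site of their gene. Both belonged to Vgll4, and 1 of them lay over its first coding start site.

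The start sites were also examined in the annotation, independently of the deposited symbols. A peak overlapped the promoter window, which reaches 500 bp to each side of the first coding start site, in 9 of 10 members, compared with 53.6% of all protein coding promoters. Most members had CpG-rich promoters, and such promoters carried a peak in 89.4% of genes. All 8 CpG-rich member promoters had one, so near to that share that a peak there does not set these genes apart. The other 2 promoters were CpG-poor, a class in which 24.7% had a peak. That of Tead2 had a peak and missed the CpG limit narrowly, with an observed over expected ratio of 0.586 against a limit of 0.6. That of Lats2 had a ratio of 0.147 and no peak, and the midpoint of the peak over later start sites of Lats2 lay 12279 bp further along the gene.

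Tead1 spanned 227.488 kb at chr7:119822832-120050319 on the plus strand. Its 14 peaks extended over 260 kb, with midpoints from -83883 to 175459 bp relative to the first coding start site and gaps of 3.0 to 40.0 kb between neighbours. The list measured distances from 2 different start sites of Tead1, so the deposited distances (-83886 to 95392 bp) did not follow the order of the peaks, and positions are given here from the first start site. The peak over this start site was 2013 bp wide (chr7:119821832-119823844). Of all peaks within 1 kb of a TSS, 13.0% were as wide or wider. A second group of start sites, inside the gene, lay under a peak of 766 bp (chr7:119902860-119903625), 80411 bp from the first. This inner peak was narrower than most promoter peaks, at percentile 4.35 of its distance class.

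Upstream of Tead1, 4 peaks lay at -83883, -63754, -22945 and -18969 bp from the first start site. They measured 1011, 655, 884 and 1073 bp. The 3 nearest ones lay within the lincRNA gene 2310014F06Rik, annotated on the opposite strand and overlapping the start of Tead1. The farthest one was closer to a start site of Parva, at 75734 bp, than to that of Tead1, and assignment by the nearest annotated start site gave it to Parva. The same rule gave Tead1 a peak listed under Rassf10 (chr7:120096962-120099338), and gave Wwtr1 a peak listed under Mir6377.

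Inside Tead1, 9 of 10 peaks had their midpoint in an intron of the longest coding transcript, which had 11 introns. Intron 1 held 2, at 41058 and 64552 bp. Intron 2 held 5, among them the peak over the inner start sites and the widest peak of Tead1, at 101235 bp from the first start site (chr7:119922967-119925167). That peak measured 2201 bp, and only 163 of 10848 peaks beyond 10 kb were as wide or wider. Introns 3 and 4 held 1 each, at 162650 and 175459 bp. The last 51.6 kb of the gene held no peak.

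Long genes had more peaks, so Tead1 was set beside genes of similar length. In the class of 200 to 400 kb the mean was 2.29 peaks per gene, compared with 0.596 in genes under 10 kb. Among 503 protein coding genes with 0.8 to 1.25 times the span of Tead1, the median was 2 peaks and Tead1 was the only one with 14. When peaks were counted by position inside the gene, whatever their symbol, Tead1 had 10, and 5 of the 503 genes (0.994%, Tead1 included) had as many or more.

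**Figure D2:**
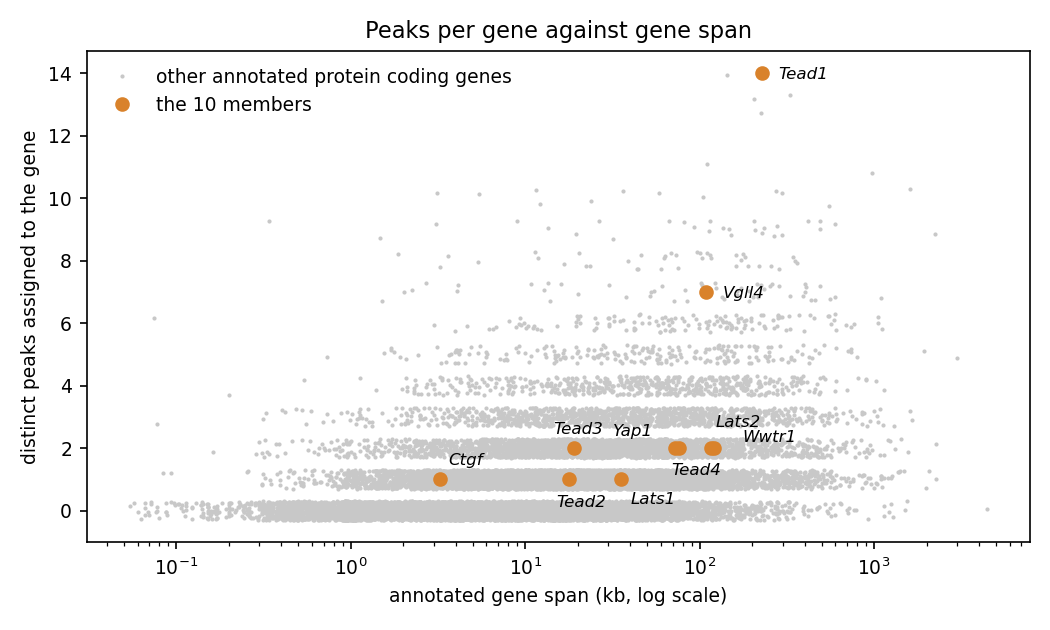
Number of distinct peaks assigned to a gene (vertical axis, other genes shifted slightly at random so that points do not hide each other) against annotated gene span in kb (log scale), with the 10 members in orange and the other annotated protein coding genes in grey. Tead1 has 14 peaks at a span of 227.488 kb and lies at the top of the plot, and Vgll4 has 7 at 109.367 kb.

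The Tead letters were frequent in the Tead1 peaks. In the central 300 bp, 10 of the 14 peaks held them (71.4%, 95% Wilson interval 45.4 to 88.3), compared with 16.5% of all peaks. All 4 upstream peaks and both start site peaks were among the 10. The number depended on the window. The matches of the peaks at -22945, -18969, 41058, 128124 and 162650 bp lay outside the central 200 bp. The 5 stretches below are shown because they carried the letters in upstream and intronic peaks of Tead1. They are written on the plus strand, and capitals mark the Tead letters and, where present, the letters GATAAG recognised by GATA factors such as the cardiac regulator Gata4.
Tead1 upstream peak at -83883 bp (chr7:119738993-119739072, plus strand): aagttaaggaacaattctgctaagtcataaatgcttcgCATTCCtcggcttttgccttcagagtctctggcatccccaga
Tead1 upstream peak at -22945 bp (chr7:119799740-119799819, plus strand): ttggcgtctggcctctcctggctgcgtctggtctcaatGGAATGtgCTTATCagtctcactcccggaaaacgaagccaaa
Tead1 upstream peak at -18969 bp (chr7:119803932-119804011, plus strand): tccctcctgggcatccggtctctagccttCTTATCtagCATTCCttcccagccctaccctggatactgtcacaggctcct
Tead1 intron 1 (chr7:119863740-119863819, plus strand): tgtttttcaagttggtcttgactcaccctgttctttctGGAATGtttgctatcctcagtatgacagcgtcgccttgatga
Tead1 intron 4 (chr7:119998271-119998350, plus strand): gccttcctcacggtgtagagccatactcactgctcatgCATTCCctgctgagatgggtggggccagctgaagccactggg

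Both upstream peaks nearest to the gene carried Tead and GATA letters side by side. In the peak at -22945 bp 2 bases separated them, and in the peak at -18969 bp 3 bases. A spacing of at most 3 bases, a limit chosen after these values were seen, occurred in the central 300 bp of 46 of all 26232 peaks (0.175%). The letters occurred together at any spacing in 4 of the 34 member peaks (11.8%, interval 4.67 to 26.6), compared with 2.29% of all peaks. The other 2 such peaks were the inner start site peak of Tead1, with 35 bases between the letters, and the intronic peak of Tead4, with 111. Among all peaks the Tead letters lay in 22.4% beyond 1 kb and 9.33% within it, and GATAAG in 13.0% and 3.31%. The 2.29% covers all distances, and no joint share by distance or without Tead1 was computed.

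**Figure D3:**
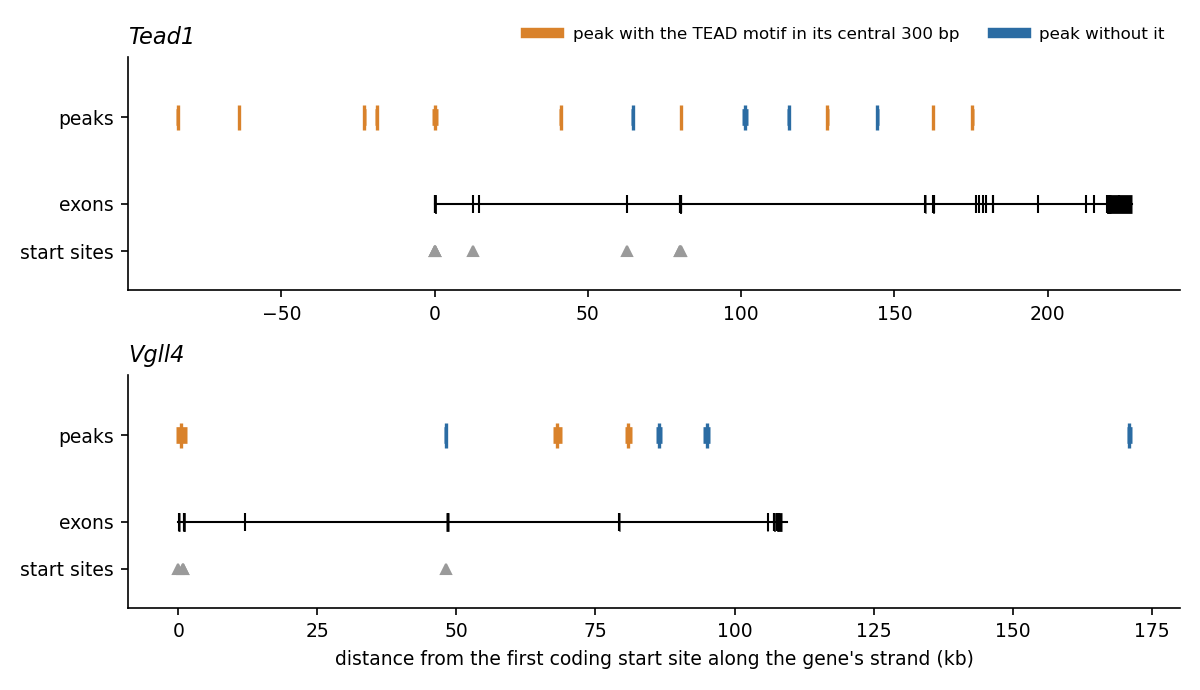
Peaks, exons of coding transcripts and coding start sites (triangles) of Tead1 (top) and Vgll4 (bottom), by distance in kb from the first coding start site along the strand of the gene, with peaks in orange where the Tead letters lie in the central 300 bp. In Tead1 10 of 14 peaks and in Vgll4 3 of 7 are orange, and the Tead1 peaks reach from upstream of the gene to intron 4.

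The other Tead genes had few peaks. Tead2 (chr7:52471123-52489005, 17.883 kb) had 1 peak of 1820 bp, which covered 7 annotated start sites and held no Tead letters. Tead3 (chr17:28468616-28487750, 19.135 kb) had 2 peaks. The one over its start site measured 4189 bp (chr17:28485521-28489709) and was the widest of the 34, with only 50 peaks in the whole list wider. It held 5 Tead matches, 3 of them in the central 300 bp, a number reached by 0.389% of all peaks. The other Tead3 peak measured 1575 bp and lay in intron 2. Tead4 (chr6:128174306-128250841, 76.536 kb) had a start site peak of 1772 bp and a peak of 757 bp in intron 1, with 3 and 1 Tead matches over their whole length. The matches of the start site peak lay outside its central 300 bp. A further peak of 1127 bp lay in the last part of Tead4 but carried the symbol of a neighbouring transcript, 9330102E08Rik.

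The coactivators had wide peaks at their start sites. Wwtr1 (chr3:57259571-57379832, 120.262 kb) had a peak of 2484 bp over its start site (chr3:57378595-57381078), and 4.59% of peaks within 1 kb of a TSS were as wide or wider. Its second peak measured 566 bp and lay at -7857 bp. Both held a Tead match in the central 300 bp. No peak midpoint lay in the gene beyond the first 1 kb, which was also so in 44.8% of 1094 genes of similar span. Yap1 (chr9:7931999-8004596, 72.598 kb) had a start site peak of 2146 bp and a peak of 811 bp in intron 4, 45158 bp from the start. Neither held Tead letters in the central 300 bp, although the start site peak held 2 matches outside it, 1 of them in the promoter stretch shown above. A peak of 1018 bp in the last intron of Yap1 carried the symbol of the next gene, Birc3. By position Yap1 had 2 peaks beyond the first 1 kb of the gene, and 255 of 1554 genes of similar span (16.4%) had as many or more.

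Outside the start sites, the second peak of Wwtr1, the intronic peak of Tead4 and 2 of the 5 other Vgll4 peaks held Tead letters in the central 300 bp. The remaining 3 of those Vgll4 peaks held none over their whole length. The stretches around the matches are shown on the strand of each gene, with the Tead letters or their reverse complement in capitals.
Wwtr1 upstream (chr3:57387515-57387594, minus strand): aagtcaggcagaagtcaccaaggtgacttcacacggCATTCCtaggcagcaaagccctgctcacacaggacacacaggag
Tead4 intron 1 (chr6:128235915-128235994, minus strand): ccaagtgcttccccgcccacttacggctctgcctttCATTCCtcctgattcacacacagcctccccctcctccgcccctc
Vgll4 intron 2 (chr6:114851732-114851811, minus strand): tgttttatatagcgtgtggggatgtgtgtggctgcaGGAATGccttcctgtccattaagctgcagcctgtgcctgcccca
Vgll4 intron 3 (chr6:114839153-114839232, minus strand): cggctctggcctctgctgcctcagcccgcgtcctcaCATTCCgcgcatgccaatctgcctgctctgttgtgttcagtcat

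Vgll4, which competes with Yap1 for Tead, resembled Tead1 in having peaks along the gene. It spanned 109.367 kb at chr6:114810646-114920012 on the minus strand. The peak over the start sites of its longest transcripts measured 1961 bp (chr6:114918474-114920434). The list gave it a distance of -47683 bp because that distance was measured from an inner start site, so it was a start site peak that counted as distal. The inner start site itself lay under the narrowest of the 34 peaks, with 548 bp (chr6:114871646-114872193), and only 0.314% of peaks within 1 kb of a TSS were as narrow or narrower. In the introns, 4 peaks of 1526, 1186, 1103 and 1315 bp followed at 68140, 80903, 86441 and 94978 bp from the first start site, and the last of them covered start sites of noncoding transcripts. All 4 were wider than the median of 880 bp for peaks beyond 10 kb. The midpoint of the seventh peak lay 61627 bp beyond the 3′ end of Vgll4, inside the neighbouring autophagy gene Atg7. Of 1189 genes of similar span, 17 had as many assigned peaks as Vgll4 or more, Vgll4 included.

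The Lats kinases and Ctgf had 1 or 2 assigned peaks each. Lats1 (chr10:7401007-7436256, 35.25 kb) had 1 peak of 1318 bp at its start site, which it shares with Pcmt1, a gene on the other side that begins 0.073 kb away. Lats2 (chr14:58260914-58377225, 116.312 kb) had a peak of 1324 bp over 5 annotated start sites, with 1 Tead match, and a peak of 1253 bp in the first intron of a longer transcript, with 2 matches outside its central 300 bp. Another 2 peaks inside the annotated Lats2 gene carried the symbol of the neighbouring gene Xpo4. Both lay in an intron of a noncoding Lats2 transcript, and 1 of them, of 1596 bp, lay 17 bp from the start site assigned to Xpo4. By position, with this Xpo4 start site peak included, Lats2 had 4 peaks inside the gene. Of 1126 genes of similar span, 97 (8.61%) had as many or more. Ctgf (chr10:24315248-24318489, 3.242 kb) had 1 peak of 1377 bp (chr10:24314980-24316356), which covered the promoter and the start of the gene. The peak held 4 Tead matches, but none in its central 300 bp, since its midpoint lay 420 bp after the start site.

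Over all 34 peaks the median width was 1120.5 bp (95% interval 839 to 1377), compared with 1081 bp for all peaks. Within 1 kb of the TSS the 11 member peaks had a median of 1772 bp, and 6 of them were above the upper quartile of all such peaks (1691 bp). Beyond 10 kb the 20 member peaks had a median of 977 bp, compared with 880 bp, and ranged from 655 to 2201 bp. Apart from the peak of 2201 bp, the Tead1 peaks beyond 10 kb lay between percentiles 16.8 and 78.1 of their class. The width of a called interval also depends on sequencing depth, which is unknown here.

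**Figure D4:**
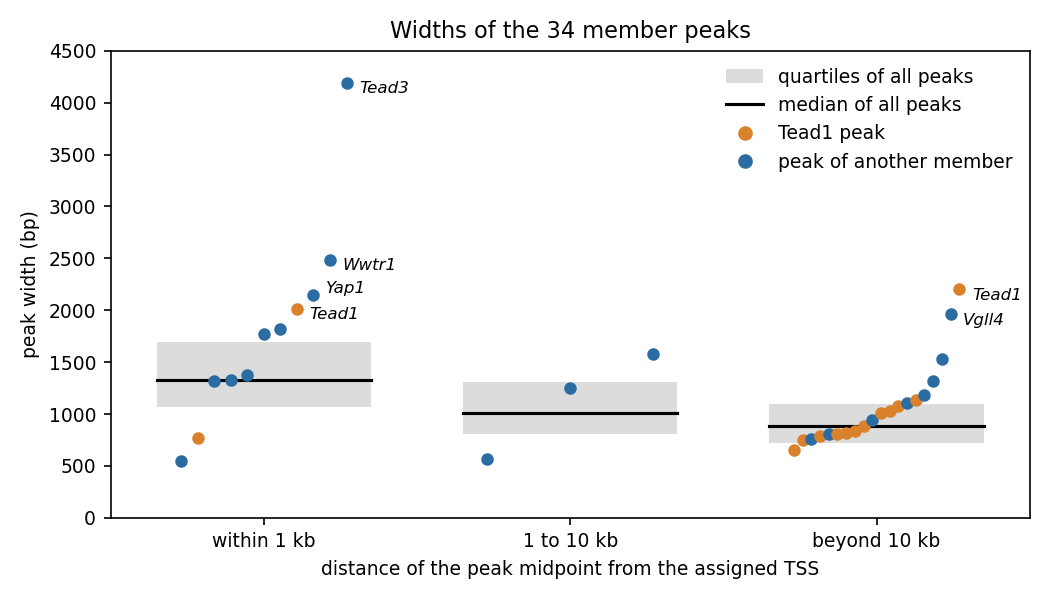
Widths in bp of the 34 peaks (points, ordered by width within each class) by distance of the midpoint from the assigned TSS, over the quartiles (grey) and the median (black line) of all peaks of that class. Within 1 kb the points reach 4189 bp at Tead3, and beyond 10 kb the widest are 2201 bp at Tead1 and 1961 bp at Vgll4. The Vgll4 peak of 1961 bp covers annotated start sites of that gene.

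Across the 10 genes, 18 of the 34 peaks (52.9%, 95% Wilson interval 36.7 to 68.5) held the Tead letters in the central 300 bp, compared with 16.5% of all peaks. The share was 45.5% against 9.33% within 1 kb of the TSS and 56.5% against 22.4% beyond it. Without the Tead1 peaks it was 40.0% (8 of 20, interval 21.9 to 61.3). The result depended on the width of the window. In the central 200 bp the share was 29.4% against 11.6%, and for peaks beyond 1 kb it was 26.1% (interval 12.5 to 46.5) against 16.1%, so that the interval included the share of all peaks. Over whole peaks the density was 1.34 matches per kb, compared with 0.582. The same letters read backwards, GTAAGG, occurred in 2 of the 34 peaks (5.88%), compared with 8.30% of all peaks. Both lay within 1 kb of the TSS, where the share was 18.2% (2 of 11, interval 5.14 to 47.7) against 7.11%. Beyond 1 kb it was 0 of 23 against 9.27%. The median GC content of the member peaks beyond 1 kb was 49.3%, and that of all such peaks was 51.4%.

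Other motifs were searched in the same way. The letters GATAAG lay in the centre of 8 of 34 peaks (23.5%, interval 12.4 to 40.0), compared with 8.65% of all peaks. The AP-1 letters TGANTCA occurred in 14.7% against 6.79%, the NKX2-5 letters TNAAGTG in 11.8% against 9.69%, and the ISL1 letters CTAATG in 5.88% against 6.54%. The intervals of these last 3 included the shares of all peaks. The 8 with GATAAG included the Tead1 peaks at -22945, -18969, 80411 and 115438 bp. The others were the Vgll4 peaks at 86441 and 94978 bp and the intronic peaks of Tead4 and Yap1. The GATAAG share without Tead1 was not computed. Beyond 1 kb the GATAAG share was 30.4% (interval 15.6 to 50.9), compared with 13.0% of all such peaks. Within 1 kb it rested on 1 of 11 peaks. In the central 200 bp it was 14.7% (interval 6.45 to 30.1), compared with 6.29%. Peaks of the same gene share their neighbourhood, and these intervals, which treat peaks as independent, understate the error.

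**Figure D5:**
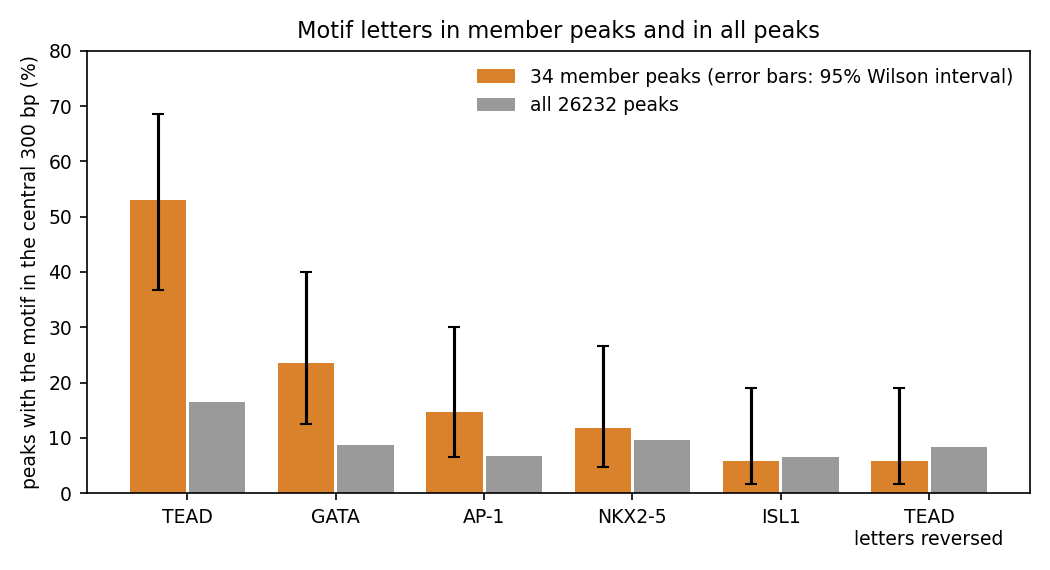
Share of peaks (%) that hold each motif in the central 300 bp, for the 34 member peaks (orange, error bars 95% Wilson interval) and for all 26232 peaks (grey). The interval lies above the share of all peaks for TEAD (52.9% against 16.5%) and GATA (23.5% against 8.65%), and includes it for the other 4 sets of letters. The GATA share includes Tead1 peaks and was not computed without them.

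Of 28 further genes of the pathway, 27 had a peak, 24 had one within 1 kb of the TSS, 17 had at least 2 and 3 had at least 5. Among all protein coding genes these shares were 62.5%, 50.1%, 24.4% and 2.23%. Vgll1, a cofactor of Tead, was the gene without a peak. By role, 6 of 6 upstream genes, 9 of 9 kinases and adaptors, 7 of 7 proteins that bind Yap1 or Lats, 2 of 3 Vgll cofactors and 3 of 3 target genes had a peak. The most were at Wwc1 (6), an upstream scaffold of Lats, Frmd6 (5), a membrane-linked activator, Amotl2 (5), which binds Yap1 and is itself a target, and at the kinase Taok3 (4) and the target Cyr61 (4). Cyr61 had no peak within 1 kb of its TSS, and the nearest one lay at -3160 bp. The mean was 2.25 peaks per gene over the 28, 3.4 over the 10 members and 1.07 over all protein coding genes. The median was 1 over all protein coding genes and 2 over the 10 members, which include Tead1 with its 14 peaks. It was also 2 over the 28 further genes. The Tead letters lay in the centre of 17 of the 63 peaks of these genes (27.0%, interval 17.6 to 39.0), which was above the 16.5% of all peaks and below the 52.9% of the members, with an interval that overlapped that of the members. For comparison, they lay in 7 of 35 peaks of the cardiac progenitor markers (20.0%, interval 10.0 to 35.9) and in 4 of the 14 peaks of Rgs3 (28.6%, interval 11.7 to 54.6).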

How the data were processed

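ATAC-Seq was performed on day 5 CPCs, and 1 peak list shared by the 2 replicates was analysed. Per the study's methods, the authors mapped reads to mm9 with bowtie2, removed duplicates with Picard 1.136, ran MACS14 on each replicate with a preset read shift in place of a fragment model, dropped blacklisted regions, and retained peaks with an overlap of 1 bp or more between replicates (bedtools 2.15). No further correction for the Tn5 cut position is described. Assignment to the nearest TSS with HOMER is described for ChIP-Seq peaks. The deposited values are peak starts and ends in bp and signed distances in bp to a TSS, with no count, score or p-value.

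Of 26429 lines, 197 repeat an interval and were dropped, including 1 of the 15 Tead1 lines. Positions are 1-based on mm9. Sequence came from NCBIM37 and gene models from GENCODE vM1, both the same build, and the 21900 protein coding genes came from a RefSeq table (GRCm38.p6) used for names. Among the accessions of the list 96.7% were found in it. A promoter reached 500 bp to each side of the first coding start site, and was CpG-rich when the CpG ratio was 0.6 or more and GC content 50% or more. Motifs were searched as exact letters on both strands in 300 bp at the midpoint. Shares have 95% Wilson intervals over peaks, which leave out variation between differentiations. The promoter sequence of 1 member is not reported here. No test was possible with 1 group and 1 list. The members, gene lists and motifs were chosen with earlier results of these data known. All 10 members are named, with the pathway genes that have the most peaks or none and any gene with as many peaks as the top member. The search and counting were tested on simulated data (Python 3.11.15, pandas 2.3.3, pysam 0.24.0).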

Additional observations from a re-analysis of the deposited data

How the results depend on the processing

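For 9 results, 43 alternatives were computed, of which 3, leaving out the peaks of Tead1, were added after seeing the data. Of the 43, 34 stayed within 1.5 times the reported count or within its interval, and 9 did not. Some outcomes were fixed in advance. A lower width limit of 500 bp could remove no member peak, since the narrowest measured 548 bp. Keeping only wider peaks had to raise the median width. Keeping only peaks wider than the median of the list left 18 member peaks and 3 Tead1 peaks, with a median width of 1550.5 bp, 50.0% of member peaks within 1 kb and 44.2% of protein coding genes with a peak. Assigning peaks to the nearest annotated coding TSS gave 65.4% of protein coding genes with a peak, and 14 peaks for Tead1. Those 14 were not the listed set, since a peak went to Parva and another came from Rassf10. Counting midpoints inside a gene or within 10 kb of it gave 71.1%, and 10 peaks for Tead1. The share of member peaks with the Tead letters was 29.4% in 200 bp and 73.5% in whole peaks, compared with 11.6% and 47.1% of all peaks. No paired analysis was possible because the replicates share 1 list of peaks and there is 1 group, and for the same reason neither replicate could be left out. Depth is unknown.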
